A study of Homo sapiens with 6 samples.

Results

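HCC827GR and PC-9GR are labelled as the GR lines of 2 human lung adenocarcinoma lines, HCC827 and PC-9, and their transcriptomes were set against each other, with the parental libraries as a second pair. They are 2 of the 6 libraries of the study, chosen by their labels, and all 16843 genes of the table that holds them were used. The study asked which signalling pathways accompany resistance that tumour cells acquire against inhibitors of the EGFR kinase. HCC827 and PC-9 are established lines with an activating EGFR mutation, and inhibitors of that receptor stop their growth. All of these cultures were kept in RPMI-1640 with serum, and total RNA was sequenced after ribosomal RNA depletion with a stranded kit. What GR stands for is not written out in the labels, which give no drug, dose or clone for either GR line. The label of HCC827GR reads HCC82GR and was taken as HCC827GR.

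Each line had 1 library, so no difference given here has a replicate check and no test was made. Levels are in CPM, the counts of a gene out of 1000000 in its library, and are compared between libraries for the same gene. A log2 ratio is that of the CPM of the libraries named, with a prior count of 2 added to each. A gene counted as higher or lower when it differed at least 2-fold and reached 1 CPM in 1 of the libraries compared.

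An epithelial cell keeps its shape through a set of transcription and splicing factors, among them GRHL2, OVOL1 and ESRP1, that hold cadherins, claudins and keratins in expression. The repressor ZEB1 binds E-box motifs of the form CACCTG in the promoters of such genes, and a shift away from this state towards vimentin and ZEB1 expression is a known companion of resistance to EGFR inhibitors in lung adenocarcinoma. The transcription factor NRF2, held down by KEAP1, binds antioxidant response elements with the core TGACNNNGC and drives genes of detoxification, glutathione and NADPH supply.

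The libraries held 14529321 to 17855052 counts. HCC827GR resembled its parent, with a Spearman correlation of 0.957 across the 16843 genes, while PC-9GR stood apart from its parent at 0.831. PC-9GR was closer to HCC827 (0.865) and to HCC827GR (0.871) than to PC-9, and the parents correlated at 0.877. PC-9ER, the line labelled as the ER line of PC-9 and held in a second table, correlated with PC-9 at 0.970 and with PC-9GR at 0.842 over 15998 genes. In PC-9GR, 253 genes were at 10 CPM or more that had at most 3 counts in PC-9, and 199 genes were silent that PC-9 expressed by the same limits. The same counts in HCC827GR against HCC827 were 12 and 25. Of 17 genes listed at 0 in PC-9 and at 30 CPM or more in the other 3 libraries, 16 had at most 3 counts in PC-9ER as well. These values go against the label of PC-9GR as a line made from PC-9, and its origin was not tested. The name PC-9GR, and PC-9 as its parent, are kept here as the labels have them. The counts over all genes and a number of list medians are also given with PC-9ER in its place. For most single genes and lists they are not.

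Markers of lung adenocarcinoma were in part absent. The cytokeratin KRT7 was at 2562 CPM in HCC827GR and 2175 CPM in PC-9GR, against 4241 CPM in HCC827 and 2818 CPM in PC-9. The lung lineage factor NKX2-1 was at 2.74 CPM in HCC827GR and 0 in PC-9GR, against 15.2 CPM in HCC827 and 0.769 CPM in PC-9. SFTPB, surfactant protein B, had at most 1 count in HCC827GR, PC-9GR and HCC827 and was at 2.96 CPM in PC-9. Leukocyte markers summed to 480 CPM over 12 listed genes in HCC827GR and 35.2 CPM in PC-9GR, against 488 CPM in HCC827 and 983 CPM in PC-9. LCP1 made up most of the sum in HCC827GR, HCC827 and PC-9, and 6, 5, 2 and 3 of the 12 genes were at 0 in HCC827GR, PC-9GR, HCC827 and PC-9. Endothelial markers summed to 0.534 CPM over 10 genes in HCC827GR and 31.5 CPM in PC-9GR, against 1.86 CPM in HCC827 and 248 CPM in PC-9. Fibroblast markers summed to 4.14 CPM over 8 genes in HCC827GR and 32.3 CPM in PC-9GR, against 7.50 CPM in HCC827 and 23.1 CPM in PC-9.

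The promoters below are of genes described later: RAB25, KLK6 and CLDN7 were low in HCC827GR and PC-9GR alike, and GCLM and TXNRD1 are NRF2 targets with antioxidant elements that stayed within 2-fold between the 2 libraries. Each runs from 250 bases before to 50 after the gene's start, 5′ to 3′ on the gene's strand, from RefSeq on GRCh38.p14. Capitals mark CACCTG or its reverse complement CAGGTG in the first 3, and TGACNNNGC or its reverse complement in the last 2. RAB25 lies at chr1:156060910-156061209 on the plus strand, KLK6 at chr19:50969542-50969841 on the minus strand, CLDN7 at chr17:7262429-7262728 on the minus strand, GCLM at chr1:93909381-93909680 on the minus strand and TXNRD1 at chr12:104215529-104215828 on the plus strand.
RAB25: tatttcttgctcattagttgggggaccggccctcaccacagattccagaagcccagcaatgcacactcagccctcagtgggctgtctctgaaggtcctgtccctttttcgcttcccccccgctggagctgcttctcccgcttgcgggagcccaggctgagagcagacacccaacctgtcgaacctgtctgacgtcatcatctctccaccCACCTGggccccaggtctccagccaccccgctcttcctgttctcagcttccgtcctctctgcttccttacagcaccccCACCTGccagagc
KLK6: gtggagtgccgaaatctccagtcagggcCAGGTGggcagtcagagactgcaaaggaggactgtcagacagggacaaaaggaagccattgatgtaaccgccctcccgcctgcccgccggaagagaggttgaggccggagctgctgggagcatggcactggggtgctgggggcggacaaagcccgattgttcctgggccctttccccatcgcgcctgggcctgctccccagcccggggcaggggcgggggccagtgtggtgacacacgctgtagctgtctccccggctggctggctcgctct
CLDN7: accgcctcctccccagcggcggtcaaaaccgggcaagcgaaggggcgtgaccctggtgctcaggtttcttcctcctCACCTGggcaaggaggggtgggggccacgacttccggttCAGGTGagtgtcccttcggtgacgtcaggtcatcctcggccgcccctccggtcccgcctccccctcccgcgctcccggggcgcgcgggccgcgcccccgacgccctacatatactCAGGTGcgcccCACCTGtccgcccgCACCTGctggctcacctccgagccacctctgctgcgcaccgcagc
GCLM: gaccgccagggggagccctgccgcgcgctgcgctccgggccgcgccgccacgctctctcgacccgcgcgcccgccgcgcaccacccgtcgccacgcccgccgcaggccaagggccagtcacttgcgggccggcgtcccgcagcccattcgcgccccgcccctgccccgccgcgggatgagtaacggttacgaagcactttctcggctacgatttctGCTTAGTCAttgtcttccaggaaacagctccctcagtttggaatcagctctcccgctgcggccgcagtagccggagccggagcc
TXNRD1: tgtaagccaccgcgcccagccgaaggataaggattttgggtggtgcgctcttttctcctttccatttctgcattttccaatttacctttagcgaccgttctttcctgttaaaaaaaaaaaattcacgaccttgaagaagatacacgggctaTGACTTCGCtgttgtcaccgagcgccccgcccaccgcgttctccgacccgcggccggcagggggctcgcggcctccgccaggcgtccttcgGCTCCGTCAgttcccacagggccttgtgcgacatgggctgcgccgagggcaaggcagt

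Where a gene had several windows, the one with the most matches is shown. The CLDN7 window shown held 5 matches and a second window of that gene held 0. The TXNRD1 window shown held 2 and a second window of that gene held 1. Of the 8 genes lowest in both GR libraries relative to their parents, named below, 5 had a window, and 2 of the 5 held CACCTG. The RAB25 window held 2 matches and the KLK6 window 1, whereas those of PROM2, ADGRF1 and SCEL held 0. Of 65 promoter windows of 44 genes of the epithelial lists, 38.5% held CACCTG on either strand, against 20.6% of all 35116 windows of the table. Of 20 windows of 17 NRF2 targets, 35.0% held TGACNNNGC on either strand, against 13.3% of all windows. The motifs do not overlap each other, and a match is a stretch of letters and not a measured binding site.

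HCC827GR and PC-9GR were both low in epithelial genes. Of 13729 genes that reached 1 CPM in any of the 4 libraries, 1293 were lower in HCC827GR than in HCC827 (9.42%), 2821 were lower in PC-9GR than in PC-9 (20.5%), and 642 were lower in both (4.68%). These 642 genes were 49.7% of the HCC827GR list and 22.8% of the PC-9GR list. Over 5 lists of epithelial regulators, surface genes, claudins, desmosome genes and keratins, 34 of 75 genes were lower in both GR libraries. They were uneven across the lists, with 10 of 15 regulators and 12 of 20 surface genes. Fewer were lower in both among tight junction genes (6 of 16), desmosome genes (2 of 9) and keratins (4 of 15). Lower in HCC827GR than in HCC827 were 46 of the 75, and lower in PC-9GR than in PC-9 were 47. With PC-9ER in place of PC-9GR, 10 of 75 were lower in both, and the count over all genes was 279. In bulk RNA, fewer cells of a type and less RNA per cell cannot be told apart.

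The transcription and splicing regulators were low in both, with 10 of 15 lower in both GR libraries. GRHL2, a grainyhead factor that maintains epithelial junction genes, had 3 counts in HCC827GR and 0 in PC-9GR, against 57.8 CPM in HCC827 and 94.3 CPM in PC-9. OVOL1, a zinc finger repressor of mesenchymal genes, had 0 counts in HCC827GR and 1 in PC-9GR, against 19.1 CPM in HCC827 and 22.0 CPM in PC-9. ESRP1, which directs epithelial splice forms, was at 1.40 CPM in HCC827GR and 0.224 CPM in PC-9GR, against 235 CPM in HCC827 and 265 CPM in PC-9. The GR values of these 3 genes lay far below those of both parents. In PC-9ER, GRHL2 was at 102 CPM and ESRP1 at 209 CPM. The ETS factor EHF was at 0.534 CPM in HCC827GR and 2.63 CPM in PC-9GR, against 92.5 CPM in HCC827 and 380 CPM in PC-9.

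Some regulators set the GR libraries apart. ESRP2, the paralog of ESRP1, was at 125 CPM in HCC827GR and 0.280 CPM in PC-9GR, against 192 CPM in HCC827 and 58.2 CPM in PC-9, a log2 ratio of 8.27 between the GR libraries. ELF3, an epithelial ETS factor, went the other way, with 31.1 CPM in HCC827GR and 350 CPM in PC-9GR, against 252 CPM in HCC827 and 159 CPM in PC-9. HCC827GR was thus low in ESRP1 and ELF3 and held ESRP2, whereas PC-9GR was low in ESRP1 and ESRP2 and high in ELF3. KLF5 and RBM47, further epithelial regulators, were within 2-fold in every one of these pairs.

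Among adherens junction and surface genes, 12 of 20 were lower in both GR libraries. E-cadherin, CDH1, was at 116 CPM in HCC827GR and 56.0 CPM in PC-9GR, against 616 CPM in HCC827 and 322 CPM in PC-9. P-cadherin, CDH3, was at 1.74 CPM in HCC827GR and 0.112 CPM in PC-9GR, against 475 CPM in HCC827 and 216 CPM in PC-9. RAB25, a GTPase of apical recycling, had 0 counts in HCC827GR and 1 in PC-9GR, against 39.9 CPM in HCC827 and 84.6 CPM in PC-9. CDH1 was thus reduced in part in the GR libraries, while CDH3 and RAB25 were at 1.74 CPM or less. A group of surface proteins differed in size. The adhesion molecule EPCAM was at 29.0 CPM in HCC827GR and 1.90 CPM in PC-9GR, against 460 CPM in HCC827 and 383 CPM in PC-9. The matriptase gene ST14 was at 15.2 CPM in HCC827GR and had 1 count in PC-9GR, against 348 CPM in HCC827 and 487 CPM in PC-9. In both genes, HCC827GR kept a low level and PC-9GR was at 1.90 CPM or less.

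**Figure D1:**
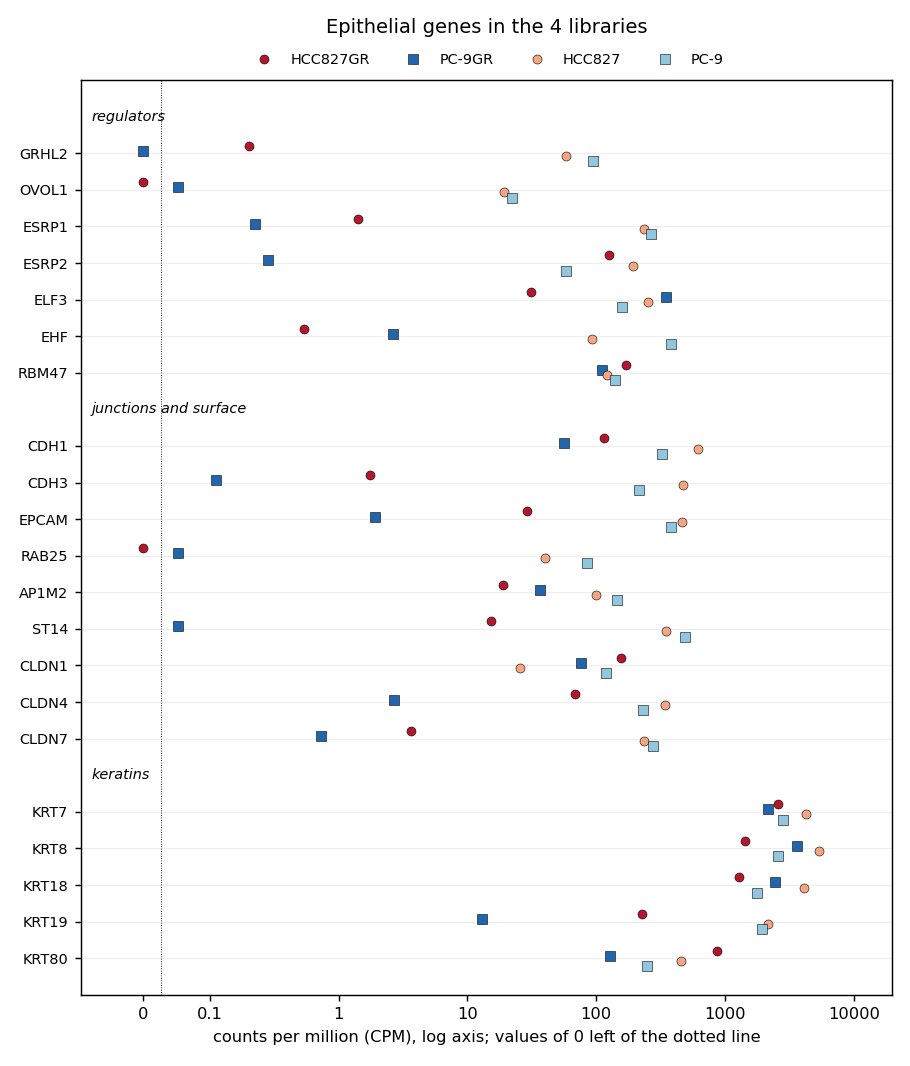
Expression of 21 epithelial genes in HCC827GR and PC-9GR (dark points) and in HCC827 and PC-9 (pale points), in CPM on a log axis, 1 library each, with values of 0 drawn left of the dotted line. GRHL2, OVOL1, ESRP1, CDH3 and RAB25 were near 0 in both GR libraries, while ESRP2, EPCAM and ST14 were higher in HCC827GR than in PC-9GR and ELF3 was lower.

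Tight junction genes were the epithelial list that leaned most to HCC827GR, with 10 of 16 higher and 1 lower in HCC827GR than in PC-9GR, against 20.3% higher and 19.2% lower over all 13094 genes tested in that comparison. Their median log2 ratio was 1.66, against 0.10 for all genes, and it was 0.63 with PC-9ER in place of PC-9GR. CLDN4, a sealing claudin, was at 68.4 CPM in HCC827GR and 2.69 CPM in PC-9GR, against 340 CPM in HCC827 and 231 CPM in PC-9. CXADR, the coxsackievirus and adenovirus receptor, was at 135 CPM in HCC827GR and 13.7 CPM in PC-9GR, against 137 CPM in HCC827 and 51.1 CPM in PC-9. CLDN7 was low in both GR libraries, at 3.67 CPM in HCC827GR and 0.728 CPM in PC-9GR, against 235 CPM in HCC827 and 277 CPM in PC-9. The pore-forming claudin CLDN2 was instead higher in both GR libraries than in their parents, at 77.6 CPM in HCC827GR and 146 CPM in PC-9GR, against 18.7 CPM in HCC827 and 0 in PC-9. CLDN1 was at 155 CPM in HCC827GR, 76.7 CPM in PC-9GR, 25.5 CPM in HCC827 and 119 CPM in PC-9, so it was higher than the parent in HCC827GR and within 2-fold of it in PC-9GR.

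Of 9 desmosome genes, 2 were higher and 3 lower in HCC827GR than in PC-9GR, near the shares over all genes. Plakoglobin, JUP, was at 26.7 CPM in HCC827GR and 450 CPM in PC-9GR, against 376 CPM in HCC827 and 533 CPM in PC-9. PERP, a desmosomal membrane protein, was at 74.5 CPM in HCC827GR and 330 CPM in PC-9GR, against 117 CPM in HCC827 and 453 CPM in PC-9. Periplakin, PPL, was low in both, at 3.54 CPM in HCC827GR and 7.28 CPM in PC-9GR, against 54.6 CPM in HCC827 and 139 CPM in PC-9. JUP was thus low in HCC827GR and not in PC-9GR, while desmoplakin, DSP, was within 2-fold in every pair.

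KRT8 and KRT18, keratins of simple epithelium, stayed above 1000 CPM in both GR libraries. KRT8 was at 1427 CPM in HCC827GR and 3630 CPM in PC-9GR, against 5359 CPM in HCC827 and 2568 CPM in PC-9. Its partner KRT18 was at 1281 CPM in HCC827GR and 2448 CPM in PC-9GR, against 4123 CPM in HCC827 and 1784 CPM in PC-9. KRT19 was lower in both GR libraries and far lower in PC-9GR, at 225 CPM in HCC827GR and 13 CPM in PC-9GR, against 2159 CPM in HCC827 and 1939 CPM in PC-9. KRT81, a hair keratin whose reads can be shared with its near copies, was at 0 in HCC827GR and 3645 CPM in PC-9GR, against 4.89 CPM in HCC827 and 376 CPM in PC-9. It was at least 18196-fold lower in HCC827GR against a floor of 3 counts, and its log2 ratio with the prior count, -14.84, was the largest in size among genes at 10 CPM or more. KRT80 was higher in HCC827GR than in PC-9GR, at 868 CPM against 128 CPM, with 454 CPM in HCC827 and 248 CPM in PC-9.

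Over all genes, the 8 lowest in both GR libraries relative to their parents and with at least 10 CPM in both parents were KLK6, PROM2, RAB25, CDH3, ADGRF1, GRHL2, SCEL and ESRP1. KLK6, a secreted kallikrein protease, was at 0 in HCC827GR and in PC-9GR, against 74.5 CPM in HCC827 and 481 CPM in PC-9. PROM2, a protein of membrane protrusions, was at 0.334 CPM in HCC827GR and 0.112 CPM in PC-9GR, against 154 CPM in HCC827 and 452 CPM in PC-9. The adhesion receptor ADGRF1 was at 0 in HCC827GR and PC-9GR, against 28.2 CPM in HCC827 and 362 CPM in PC-9. SCEL, sciellin of the cornified envelope, had 0 counts in HCC827GR and 1 in PC-9GR, against 53.3 CPM in HCC827 and 27.8 CPM in PC-9. In all, 13 genes were at 10 CPM or more in both parents and had at most 3 counts in both GR libraries. Besides KLK6, RAB25, ADGRF1, GRHL2, SCEL and OVOL1 they included SYK, SERPINB5, TMPRSS13, EPHA1, KRT16 and FAM83F, among them a tyrosine kinase, the serpin maspin, a membrane protease and an Eph receptor. With at most 3 counts in both parents and 10 CPM or more in both GR libraries there were 0 genes.

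Genes of the epithelial cell surface beyond the junctions followed. Of 20 membrane serine proteases, kallikreins and serpins, 11 were lower in both GR libraries, against 4.68% of all genes. Of 13 trefoil, mucin and secretory genes, 7 were lower in both. MUC16, a large transmembrane mucin, was at 6.34 CPM in HCC827GR and 0 in PC-9GR, against 229 CPM in HCC827 and 366 CPM in PC-9. LCN2, the siderophore-binding lipocalin, was at 8.61 CPM in HCC827GR and 13.1 CPM in PC-9GR, against 176 CPM in HCC827 and 849 CPM in PC-9. The secretory disulfide isomerase AGR2 separated the GR libraries, with 0 in HCC827GR and 157 CPM in PC-9GR, against 8.47 CPM in HCC827 and 33.0 CPM in PC-9. TFF3, the trefoil peptide in the title of the study, had 0 counts in HCC827GR and 1 in PC-9GR, with 0 in HCC827 and in PC-9, so no difference was detectable at this depth.

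Higher in both GR libraries than in their parents were 481 genes (3.50%), out of 1143 higher in HCC827GR (8.33%) and 2941 higher in PC-9GR (21.4%). They were 42.1% of the HCC827GR list and 16.4% of the PC-9GR list, and with PC-9ER in place of PC-9GR the count was 177. Vimentin, VIM, the intermediate filament of mesenchymal cells, was at 929 CPM in HCC827GR and 1389 CPM in PC-9GR, against 98.0 CPM in HCC827 and 5.27 CPM in PC-9. ZEB1, the E-box repressor, was at 36.9 CPM in HCC827GR and 25.2 CPM in PC-9GR, against 6.40 CPM in HCC827 and 0.651 CPM in PC-9. Its paralog ZEB2 was at 12.9 CPM in HCC827GR and 6.89 CPM in PC-9GR, against 0.413 CPM in HCC827 and 1.01 CPM in PC-9. VIM, ZEB1 and ZEB2 were within 2-fold between the GR libraries. COL4A1, a chain of basement membrane collagen, was also higher in both, and was at 272 CPM in HCC827GR and 146 CPM in PC-9GR, against 29.4 CPM in HCC827 and 4.20 CPM in PC-9.

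The 8 genes highest in both GR libraries relative to their parents and with at least 10 CPM in both GR libraries were ALDH1A1, ALPK2, IGFBP7, TENM3, AKR1C2, RFTN1, CYFIP2 and DIP2C. ALDH1A1, a retinal-oxidizing dehydrogenase, was at 187 CPM in HCC827GR and 7196 CPM in PC-9GR, against 2.34 CPM in HCC827 and 0.0592 CPM in PC-9. The aldo-keto reductase AKR1C2, whose reads can be shared with AKR1C1 and AKR1C3, was at 35.6 CPM in HCC827GR and 4751 CPM in PC-9GR, against 0.757 CPM in HCC827 and 66.0 CPM in PC-9. IGFBP7, a secreted binding protein, was at 42.9 CPM in HCC827GR and 268 CPM in PC-9GR, against 0.826 CPM in HCC827 and 0.118 CPM in PC-9. These 3 shared a direction but not a level, since each was lower in HCC827GR than in PC-9GR with log2 ratios between -7.06 and -2.64. RFTN1, a lipid raft linker, was at 32.9 CPM in HCC827GR and 20.2 CPM in PC-9GR, against 1.17 CPM in HCC827 and 0.296 CPM in PC-9. CYFIP2, a subunit of the WAVE complex, was at 54.8 CPM in HCC827GR and 64.7 CPM in PC-9GR, against 2.06 CPM in HCC827 and 0.0592 CPM in PC-9. In PC-9ER, ALDH1A1, IGFBP7 and CYFIP2 were at 0, and AKR1C2 was at 2578 CPM.

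**Figure D2:**
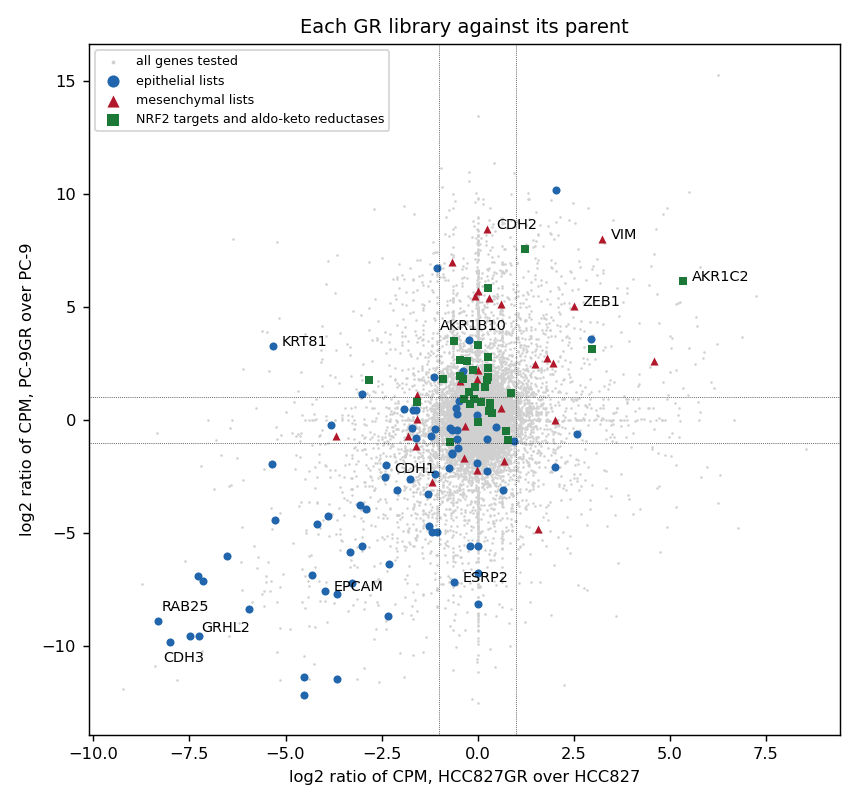
Log2 ratio of CPM of HCC827GR over HCC827 (x axis) against that of PC-9GR over PC-9 (y axis) for genes at 1 CPM or more in any of the 4 libraries, 1 point per gene, with dotted lines at 2-fold. Many members of the epithelial lists lie in the lower left quadrant, VIM and ZEB1 lie in the upper right, and most NRF2 targets and aldo-keto reductases lie near 0 on the x axis and above it on the y axis.

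EGFR was lower in both GR libraries. EGFR, the receptor that the inhibitors block, was at 632 CPM in HCC827GR and 348 CPM in PC-9GR, against 5450 CPM in HCC827 and 1221 CPM in PC-9. ERBB3, its kinase-impaired partner, was at 9.82 CPM in HCC827GR and 5.82 CPM in PC-9GR, against 81.9 CPM in HCC827 and 120 CPM in PC-9. TGFA, a ligand of EGFR, was at 13.6 CPM in HCC827GR and 9.69 CPM in PC-9GR, against 50.9 CPM in HCC827 and 76.1 CPM in PC-9. Each of these 3 was within 2-fold between the GR libraries. Of 20 genes induced by MAPK signalling, 9 were lower in both GR libraries, against 4.68% of all genes. Their median log2 ratio was -0.26 between the GR libraries, and 1.10 with PC-9ER in place of PC-9GR. DUSP6, a phosphatase of ERK, was at 1.54 CPM in HCC827GR and 11.1 CPM in PC-9GR, against 15.9 CPM in HCC827 and 93.8 CPM in PC-9. The feedback inhibitor SPRY4 was at 2.27 CPM in HCC827GR and 11.5 CPM in PC-9GR, against 18 CPM in HCC827 and 87.6 CPM in PC-9. The difference from the parent was alike for these genes, and the offset between HCC827GR and PC-9GR was that between HCC827 and PC-9.

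In other ERBB ligands and MAPK genes the GR libraries parted. HBEGF, a ligand of EGFR, was at 44.1 CPM in HCC827GR and 2.18 CPM in PC-9GR, against 19.7 CPM in HCC827 and 84.9 CPM in PC-9. The ERBB3 ligand NRG1 was at 54.0 CPM in HCC827GR and 158 CPM in PC-9GR, against 53.3 CPM in HCC827 and 0.888 CPM in PC-9. DUSP4, a nuclear MAPK phosphatase, was at 5.01 CPM in HCC827GR and 299 CPM in PC-9GR, against 30.9 CPM in HCC827 and 238 CPM in PC-9. HCC827GR was low in DUSP4 and PC-9GR was not. The immediate early factor EGR1 was at 62.6 CPM in HCC827GR and 0.560 CPM in PC-9GR, against 232 CPM in HCC827 and 3.08 CPM in PC-9. FOSL1, an AP-1 subunit, was at 336 CPM in HCC827GR and 18.9 CPM in PC-9GR, against 756 CPM in HCC827 and 95.2 CPM in PC-9. For EGR1 and FOSL1 the parents already differed the same way.

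Of 19 bypass receptors and ligands, which can stand in for EGFR, 2 were higher and 8 lower in HCC827GR than in PC-9GR. Over all genes tested, 20.3% were higher and 19.2% lower. Between the parents the list leaned the other way, with 8 of the 19 higher and 4 lower in HCC827 than in PC-9. MET was at 464 CPM in HCC827GR and 242 CPM in PC-9GR, against 617 CPM in HCC827 and 163 CPM in PC-9. AXL was at 149 CPM in HCC827GR and 131 CPM in PC-9GR, against 25.3 CPM in HCC827 and 70.8 CPM in PC-9. FGFR1 was at 277 CPM in HCC827GR and 154 CPM in PC-9GR, against 36.8 CPM in HCC827 and 12.7 CPM in PC-9. FGFR1 was higher than the parent in both GR libraries, AXL in HCC827GR and MET in neither. The list's median log2 ratio was -0.58, and 0.25 with PC-9ER in place of PC-9GR. The neurotrophin receptor NTRK3 was at 0 in HCC827GR and 61.0 CPM in PC-9GR, and at 0 in both parents. IGF1R was at 51.8 CPM in HCC827GR and 223 CPM in PC-9GR, against 32.1 CPM in HCC827 and 69.2 CPM in PC-9, and the growth factor FGF2 was at 38.4 CPM in HCC827GR and 104 CPM in PC-9GR, against 24.0 CPM in HCC827 and 0.118 CPM in PC-9.

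Over all genes, the GR libraries were about as far apart as their parents. Of 13094 genes tested, 2662 were higher in HCC827GR than in PC-9GR (20.3%) and 2509 were lower (19.2%), which together is 39.5%. Between HCC827 and PC-9, 2486 of 12915 genes were higher (19.2%) and 2458 lower (19.0%). The sets overlapped in part. Of the genes higher in HCC827GR than in PC-9GR, 1039 were also higher in HCC827 than in PC-9, which is 39.0% of them, against 19.7% of all 13094 genes. Of those lower in HCC827GR, 935 were also lower in HCC827, which is 37.3%, against 16.4% of all. A further 1346 genes higher and 1169 lower between the GR libraries had parents within 2-fold, and 277 and 405 had parents that differed the other way. Another 2070 genes differed between the parents and were within 2-fold between the GR libraries. With PC-9ER in place of PC-9GR, 5133 genes differed from HCC827GR, and 64.6% of them differed the same way between the parents, against 38.2% with PC-9GR.

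**Figure D3:**
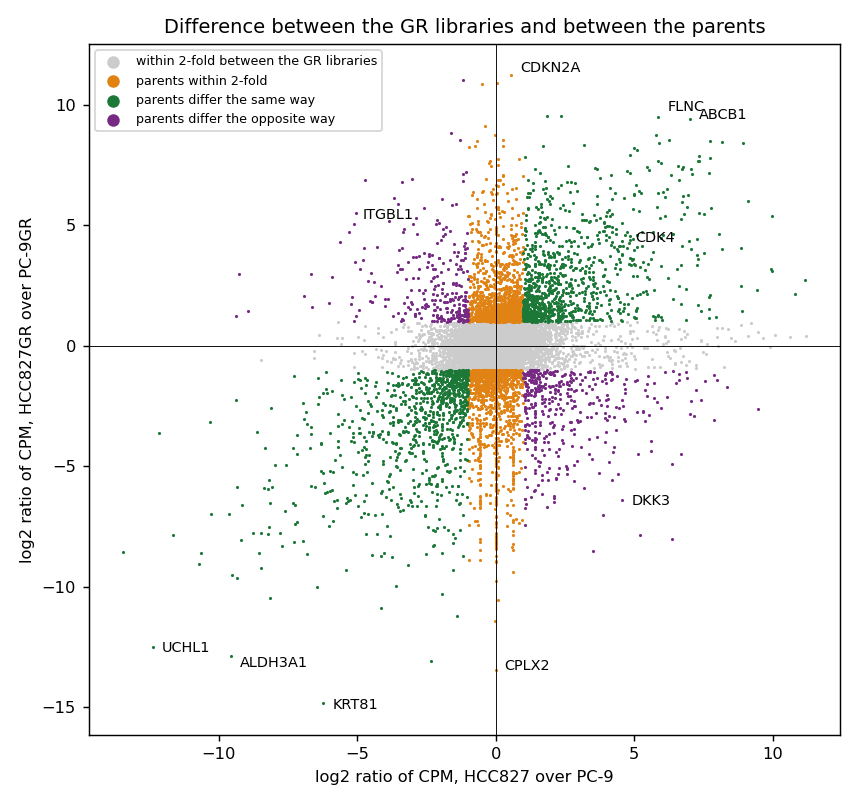
Log2 ratio of CPM of HCC827GR over PC-9GR (y axis) against that of HCC827 over PC-9 (x axis) for 13094 genes, 1 point per gene, coloured by whether the parents were within 2-fold, differed the same way or differed the opposite way. CDKN2A and CPLX2 lie near 0 on the x axis, UCHL1, ALDH3A1 and KRT81 lie low on both axes, and DKK3 and ITGBL1 lie in the quadrants where the direction turned.

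Of the 1346 genes with parents within 2-fold that were higher in HCC827GR, 532 were at least 2-fold from the parent in PC-9GR and not in HCC827GR, 137 in HCC827GR and not in PC-9GR, 141 in both and 536 in neither. Of the 1169 lower in HCC827GR, the counts were 664, 86, 151 and 268. CDKN2A, the source of the CDK inhibitor p16, led the first group at 297 CPM in HCC827GR and 0 in PC-9GR, against 304 CPM in HCC827 and 208 CPM in PC-9, at least 1771-fold higher in HCC827GR against a floor of 3 counts. The peroxiredoxin PRDX2 was at 233 CPM in HCC827GR and 0 in PC-9GR, against 171 CPM in HCC827 and 242 CPM in PC-9. RAC2, a small GTPase of the cytoskeleton, was at 129 CPM in HCC827GR and had 2 counts in PC-9GR, against 192 CPM in HCC827 and 249 CPM in PC-9, a ratio of 1154 between the GR libraries (exact 95% binomial interval 319 to 9537, counting error only). LRRC61, PRSS21, a membrane serine protease, and PCDH7, a protocadherin, were also at 0 in PC-9GR and at 46.1 CPM or more in the other 3 libraries. In PC-9ER, all 7 genes listed at 0 in PC-9GR and at 30 CPM or more in the other 3 libraries were at 10 CPM or more.

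The leading genes of the second group had few or no counts in the other 3 libraries. CPLX2, complexin of synaptic vesicle release, was at 0 in HCC827GR and 1398 CPM in PC-9GR, and at 0 in both parents. LBH, a transcription cofactor, was at 0 in HCC827GR and 340 CPM in PC-9GR, with 5 and 6 counts in HCC827 and PC-9. The LIM protein CRIP1 was at 0 in HCC827GR and 189 CPM in PC-9GR, with 1 count in each parent. GABRA5, ADD2 and TESC followed, at 109, 83.7 and 63.2 CPM in PC-9GR and at 0 in HCC827GR. In all, 75 genes were at 10 CPM or more in PC-9GR and had at most 3 counts in each of the other 3, against 2 in HCC827GR, FMO1 and MME, which encode a flavin monooxygenase and neprilysin.

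Differences between the parents that the GR libraries kept included silent genes on either side. FOLR1, a folate receptor, was at 65.9 CPM in HCC827GR with 1 count in PC-9GR, and at 26.8 CPM in HCC827 with 0 in PC-9. ABCB1, the drug efflux pump P-glycoprotein, was at 85.2 CPM in HCC827GR and 0 in PC-9GR, against 16 CPM in HCC827 and 0 in PC-9. RRAD, a small GTPase, was at 116 CPM in HCC827GR and 0.392 CPM in PC-9GR, against 52.0 CPM in HCC827 and 0.118 CPM in PC-9. KRTAP2-3, SHOC1, SMIM10 and ZNF667 were also expressed in the HCC827 pair and had at most 1 count in the PC-9 pair. In the other direction, UCHL1, a ubiquitin hydrolase of neurons, was at 0 in HCC827GR and 722 CPM in PC-9GR, against 0 in HCC827 and 657 CPM in PC-9. GALNT14, a mucin glycosyltransferase, was at 0 in HCC827GR and 91.0 CPM in PC-9GR, against 0 in HCC827 and 91.8 CPM in PC-9. SRGN, the proteoglycan serglycin, was at 0 in HCC827GR and 98.6 CPM in PC-9GR, against 0 in HCC827 and 80.1 CPM in PC-9. SFRP1, a secreted Wnt antagonist, was at 0 in HCC827GR and 66.8 CPM in PC-9GR, against 0 in HCC827 and 210 CPM in PC-9. These genes were shared by PC-9GR and PC-9, beside the many that were not.

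Among the leading genes that differed between the parents and not between the GR libraries, PC-9 stood apart from the GR libraries and HCC827, and PC-9ER lay with PC-9. C12orf75 was at 252 CPM in HCC827GR and 191 CPM in PC-9GR, against 296 CPM in HCC827 and 0 in PC-9. The NEDD8-conjugating enzyme UBE2M was at 147 CPM in HCC827GR and 108 CPM in PC-9GR, against 135 CPM in HCC827 and 0 in PC-9. BICC1, an RNA-binding protein, was at 232 CPM in HCC827GR and 242 CPM in PC-9GR, against 120 CPM in HCC827 and 0 in PC-9. C12orf75 and UBE2M were at 0 in PC-9ER too, and BICC1 had 0.0580 CPM there. In the reverse direction, the raft protein MAL was at 0 in HCC827GR and PC-9GR and in HCC827, and at 748 CPM in PC-9. The cancer-testis antigen MAGEA4, a member of a family of near copies, was at 0 in the same 3 libraries and at 283 CPM in PC-9. LAMA4, a laminin chain, had 1 count in each of the 3 and was at 277 CPM in PC-9. In PC-9ER, MAL was at 591 CPM, MAGEA4 at 283 CPM and LAMA4 at 179 CPM. Of 11 cancer-testis antigens at 1 CPM or more in any library, 8 were lower in PC-9GR than in PC-9, against 20.5% of all genes. XAGE1A and PRAME were higher in PC-9GR than in PC-9.

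NRF2 targets, genes of antioxidant defence and detoxification, were mostly lower in HCC827GR than in PC-9GR. Of 25 NRF2 targets, 22 were lower and 0 higher in HCC827GR than in PC-9GR, with a median log2 ratio of -2.05, and -1.12 with PC-9ER in place of PC-9GR. Over all genes tested, 19.2% were lower and 20.3% higher, with a median of 0.10. For the 25 NRF2 targets in HCC827 against PC-9, 10 were lower and 1 higher, with a median of -0.67. Of the 25, 16 were higher in PC-9GR than in PC-9, against 21.4% of all genes. In HCC827GR, 1 was higher and 2 were lower than in HCC827, against 8.33% and 9.42% of all genes. The quinone reductase NQO1 was at 235 CPM in HCC827GR and 2455 CPM in PC-9GR, against 434 CPM in HCC827 and 697 CPM in PC-9. PGD, an NADPH-forming enzyme of the pentose phosphate pathway, was at 194 CPM in HCC827GR and 2024 CPM in PC-9GR, against 160 CPM in HCC827 and 411 CPM in PC-9. Both were lower in HCC827GR, by log2 ratios of -3.39 and -3.38. GPX2, a glutathione peroxidase, was at 0.534 CPM in HCC827GR and 277 CPM in PC-9GR, against 4.54 CPM in HCC827 and 81.7 CPM in PC-9. The cystine carrier SLC7A11 was at 27.1 CPM in HCC827GR and 261 CPM in PC-9GR, against 14.7 CPM in HCC827 and 113 CPM in PC-9. The ferritin light chain FTL was at 1672 CPM in HCC827GR and 15228 CPM in PC-9GR, against 1385 CPM in HCC827 and 2198 CPM in PC-9.

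The exceptions were HMOX1, GCLM and TXNRD1, within 2-fold between the GR libraries. HMOX1, heme oxygenase, was higher than the parent in both, at 173 CPM in HCC827GR and 279 CPM in PC-9GR, against 21.7 CPM in HCC827 and 31.3 CPM in PC-9. GCLM, the modifier subunit of glutathione synthesis whose promoter is shown above, was at 165 CPM in HCC827GR and 318 CPM in PC-9GR, against 127 CPM in HCC827 and 259 CPM in PC-9. TXNRD1, thioredoxin reductase, was at 1004 CPM in HCC827GR and 1789 CPM in PC-9GR, against 801 CPM in HCC827 and 1164 CPM in PC-9. For GCLM and TXNRD1, with log2 ratios of -0.95 and -0.83 between the GR libraries, the offset was close to the 2-fold limit.

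Of 9 aldo-keto reductases, 7 were lower and 0 higher in HCC827GR than in PC-9GR. Over all genes tested, 19.2% were lower and 20.3% higher. The list's median log2 ratio was -3.32, and -4.19 with PC-9ER in place of PC-9GR. Between the parents, 5 of the 9 were already lower and 0 higher in HCC827, with a median of -3.60. AKR1B10, which reduces retinal and aldehydes, was at 20.8 CPM in HCC827GR and 5058 CPM in PC-9GR, against 32.0 CPM in HCC827 and 447 CPM in PC-9. AKR1C1 was at 1.47 CPM in HCC827GR and 1572 CPM in PC-9GR, against 0.551 CPM in HCC827 and 8.05 CPM in PC-9, and AKR1C3 was at 16.8 CPM in HCC827GR and 1557 CPM in PC-9GR, against 14 CPM in HCC827 and 26.9 CPM in PC-9. The AKR1C genes are near copies, so their split among each other is uncertain. Of 16 aldehyde dehydrogenases, 8 were lower and 0 higher in HCC827GR than in PC-9GR. Between the parents, 7 of the 16 were lower and 2 higher in HCC827. ALDH3A1, which clears aldehydes in the cornea and in tumour cells, was at 0 in HCC827GR and 937 CPM in PC-9GR, against 0 in HCC827 and 93.9 CPM in PC-9. ALDH1A3 instead was lower than the parent in both GR libraries, at 13.5 CPM in HCC827GR and 18.8 CPM in PC-9GR, against 300 CPM in HCC827 and 548 CPM in PC-9.

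Among drug transporters and conjugating enzymes, 7 of 21 were higher and 10 lower in HCC827GR, against 20.3% and 19.2% of all genes. ABCB1, above, was expressed in the HCC827 pair, while ABCG2, the breast cancer resistance protein pump, was at 2.20 CPM in HCC827GR and 123 CPM in PC-9GR, against 7.23 CPM in HCC827 and 41.9 CPM in PC-9. CYP24A1, which inactivates vitamin D, was at 2.40 CPM in HCC827GR and 823 CPM in PC-9GR, against 10.3 CPM in HCC827 and 6.81 CPM in PC-9. NNMT, a nicotinamide methyltransferase, was at 725 CPM in HCC827GR and 111 CPM in PC-9GR, against 289 CPM in HCC827 and 0 in PC-9. ABCB1, ABCG2 and NNMT thus differed the same way between the parents, and CYP24A1 was within 2-fold there. Between the parents, 7 of the 21 were higher and 9 lower in HCC827. Of the differences between the GR libraries, 4 of the 7 and 5 of the 10 were kept from the parents.

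**Figure D4:**
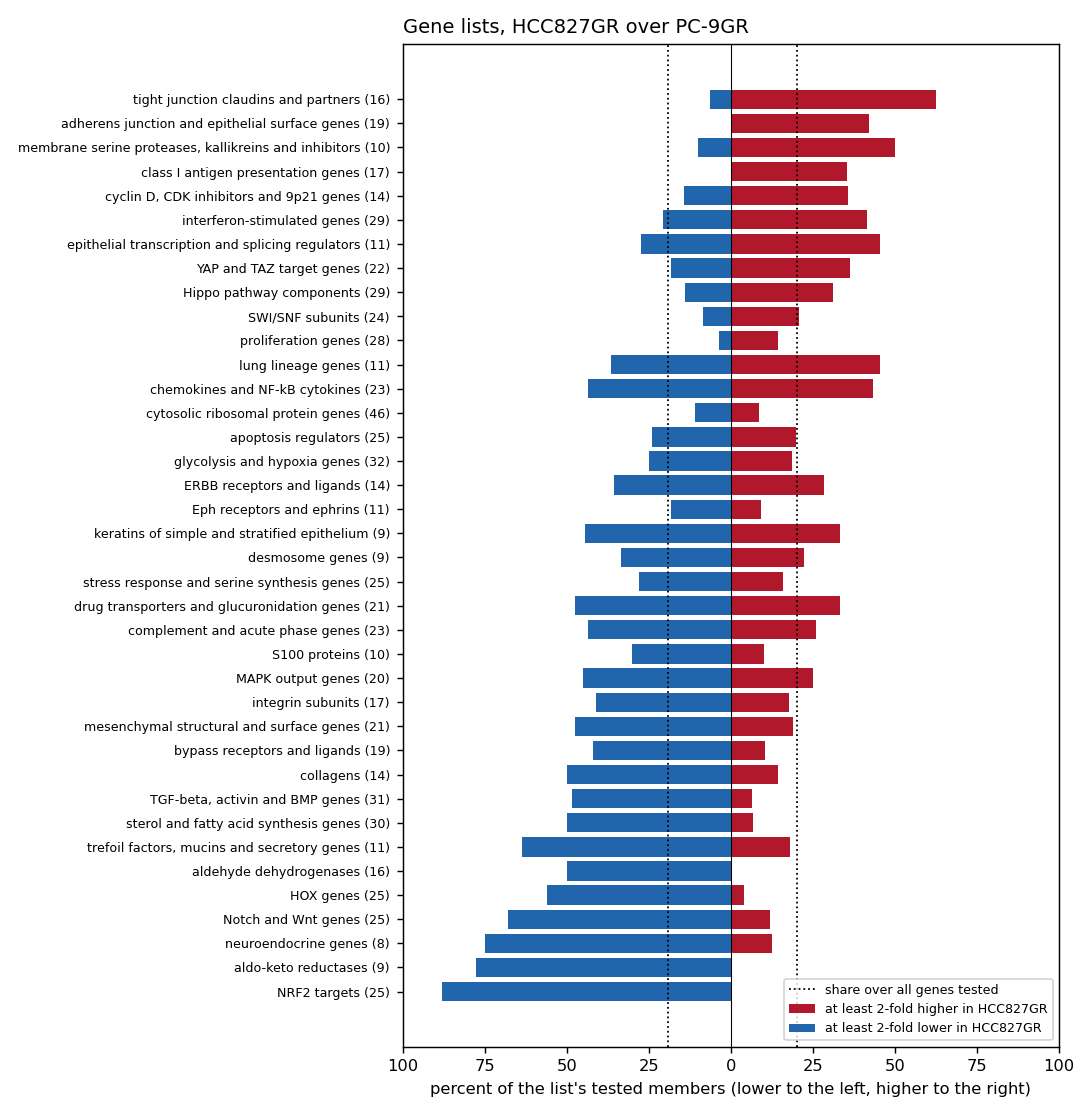
Share of the members of each gene list that were at least 2-fold higher (right) or lower (left) in HCC827GR than in PC-9GR, in percent of the members tested, whose number stands in brackets, for lists with at least 8. Dotted lines mark 20.3% and 19.2%, the shares over all genes tested, and the lists run from tight junction genes at the top to NRF2 targets at the bottom, with 22 of 25 lower.

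Cell cycle regulators differed around the CDKN2A gene. CDKN2B, the neighbouring gene that encodes p15, was at 12.1 CPM in HCC827GR with 1 count in PC-9GR, against 18.1 CPM in HCC827 and 69.5 CPM in PC-9. MTAP, a nearby gene on chromosome 9 that salvages methylthioadenosine, was at 137 CPM in HCC827GR and 3.92 CPM in PC-9GR, against 101 CPM in HCC827 and 53.6 CPM in PC-9. The 3 neighbours were thus low together in PC-9GR. CDK4, a kinase that p16 inhibits, was at 2946 CPM in HCC827GR and 175 CPM in PC-9GR, against 3178 CPM in HCC827 and 120 CPM in PC-9, a difference the parents already had. The inhibitor CDKN1A was at 4.47 CPM in HCC827GR and 215 CPM in PC-9GR, against 9.29 CPM in HCC827 and 49.3 CPM in PC-9, and cyclin D3, CCND3, was at 67.2 CPM in HCC827GR and 430 CPM in PC-9GR, against 64.9 CPM in HCC827 and 52.5 CPM in PC-9. Of 28 proliferation genes, 4 were higher and 1 lower in HCC827GR than in PC-9GR, a smaller share each way than over all genes, and MKI67 was at 367 CPM in HCC827GR and 374 CPM in PC-9GR.

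Of 24 SWI/SNF chromatin remodelling subunits, 5 were higher and 2 lower in HCC827GR than in PC-9GR, against 20.3% and 19.2% of all genes. Among members at 10 CPM or more in the higher library, SMARCA4, an ATPase of the complex, differed most. It was at 422 CPM in HCC827GR and 9.52 CPM in PC-9GR, against 319 CPM in HCC827 and 358 CPM in PC-9. SMARCA2, the alternative ATPase, was at 33.7 CPM in HCC827GR and 47.4 CPM in PC-9GR, against 47.5 CPM in HCC827 and 10.2 CPM in PC-9. SMARCD3 was higher than the parent in both GR libraries, at 6.34 CPM in HCC827GR and 17.3 CPM in PC-9GR, against 0.826 CPM in HCC827 and 1.01 CPM in PC-9.

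The Hippo pathway, which restrains the coactivators YAP1 and WWTR1 (TAZ), is named in the title of the study. YAP1 was at 108 CPM in HCC827GR and 69.4 CPM in PC-9GR, against 118 CPM in HCC827 and 205 CPM in PC-9, so it was lower than the parent in PC-9GR and within 2-fold of it in HCC827GR. WWTR1 was at 231 CPM in HCC827GR and 226 CPM in PC-9GR, against 227 CPM in HCC827 and 102 CPM in PC-9. Of 29 Hippo components, 9 were higher and 4 lower in HCC827GR than in PC-9GR, against 20.3% and 19.2% of all genes. NF2, an upstream activator, was at 75.1 CPM in HCC827GR and 23.6 CPM in PC-9GR, against 65.3 CPM in HCC827 and 77.6 CPM in PC-9. PTPN14, which holds YAP1 in the cytoplasm, was at 135 CPM in HCC827GR and 31.5 CPM in PC-9GR, against 90.9 CPM in HCC827 and 36.9 CPM in PC-9.

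Of 22 genes that YAP1 and TAZ induce, 8 were higher and 4 lower in HCC827GR, against 20.3% and 19.2% of all genes. Between the parents, 10 were higher and 2 lower in HCC827, and 5 of the 8 were among those 10. The list's median log2 ratio was 0.54, and 1.54 with PC-9ER in place of PC-9GR. Higher than the parent in both GR libraries were 4 of the 22, against 3.50% of all genes. CCN1, a secreted matrix protein, was at 1870 CPM in HCC827GR and 61.7 CPM in PC-9GR, against 1790 CPM in HCC827 and 116 CPM in PC-9. ANKRD1, a nuclear ankyrin repeat protein, was at 143 CPM in HCC827GR and 3.19 CPM in PC-9GR, against 12.0 CPM in HCC827 and 5.50 CPM in PC-9. CCN2 was within 2-fold between the GR libraries, at 16.8 CPM in HCC827GR and 26.8 CPM in PC-9GR, against 31.1 CPM in HCC827 and 0.178 CPM in PC-9. Tissue factor, F3, was at 207 CPM in HCC827GR and 2.07 CPM in PC-9GR, against 1063 CPM in HCC827 and 223 CPM in PC-9. IGFBP3 was at 5.61 CPM in HCC827GR and 179 CPM in PC-9GR, against 157 CPM in HCC827 and 103 CPM in PC-9. Members of the list thus lay on either side, and CCN1 differed between the parents as it did between the GR libraries.

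Beyond VIM and ZEB1, mesenchymal genes were more often higher in PC-9GR. Of 21 structural and surface genes, 4 were higher and 10 lower in HCC827GR than in PC-9GR, against 20.3% and 19.2% of all genes. N-cadherin, CDH2, was at 0.267 CPM in HCC827GR and 64.7 CPM in PC-9GR, against 0.206 CPM in HCC827 and 0.0592 CPM in PC-9. S100A4, a calcium-binding protein of migrating cells, was at 1.47 CPM in HCC827GR and 296 CPM in PC-9GR, against 1.17 CPM in HCC827 and 6.98 CPM in PC-9. High N-cadherin beside low E-cadherin transcripts was thus seen in PC-9GR and not in HCC827GR. The 4 genes higher in HCC827GR included the contractile genes MYL9 and TAGLN, and MYL9 was at 42.1 CPM in HCC827GR and 7.11 CPM in PC-9GR, against 15 CPM in HCC827 and 1.18 CPM in PC-9. SNAI2, a zinc finger repressor, was at 20 CPM in HCC827GR and 2.46 CPM in PC-9GR, against 25.8 CPM in HCC827 and 8.11 CPM in PC-9. FLNC, an actin crosslinker, was at 1642 CPM in HCC827GR and 2.13 CPM in PC-9GR, against 1164 CPM in HCC827 and 19.6 CPM in PC-9.

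Matrix and adhesion genes lay on either side. Of 14 collagens, 2 were higher and 7 lower in HCC827GR than in PC-9GR, and of 17 integrin subunits, 3 were higher and 7 lower. Over all genes tested, 20.3% were higher and 19.2% lower. COL5A1, of fibrillar collagen V, was at 1.14 CPM in HCC827GR and 163 CPM in PC-9GR, against 3.44 CPM in HCC827 and 20.7 CPM in PC-9. COL12A1, a fibril-associated collagen, went the other way, at 215 CPM in HCC827GR and 18.2 CPM in PC-9GR, against 3.72 CPM in HCC827 and 105 CPM in PC-9. ITGB6, an epithelial integrin that activates TGF-beta, was lower than the parent in both, at 1.80 CPM in HCC827GR and 5.21 CPM in PC-9GR, against 32.7 CPM in HCC827 and 147 CPM in PC-9. Of 31 TGF-beta, activin and BMP genes, 2 were higher and 15 lower in HCC827GR than in PC-9GR. The receptor TGFBR2 was at 53.6 CPM in HCC827GR and 190 CPM in PC-9GR, against 82.7 CPM in HCC827 and 33.3 CPM in PC-9. GREM1, a BMP antagonist, had 1 count in HCC827GR and was at 58.7 CPM in PC-9GR, with 0 in both parents. Of 25 Notch and Wnt genes, 3 were higher and 17 lower, with a median log2 ratio of -1.92. The ligand WNT7B was at 18.8 CPM in HCC827GR and 264 CPM in PC-9GR, against 143 CPM in HCC827 and 175 CPM in PC-9, whereas the receptor NOTCH2 was at 329 CPM in HCC827GR and 79.6 CPM in PC-9GR, against 310 CPM in HCC827 and 425 CPM in PC-9.

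Of 17 class I antigen presentation genes, 6 were higher and 0 lower in HCC827GR than in PC-9GR. Of 18, 11 were lower in PC-9GR than in PC-9. Over all genes tested, 20.3% were higher and 19.2% lower in HCC827GR than in PC-9GR, and 20.5% were lower in PC-9GR than in PC-9. The median log2 ratio of the list was 0.72, and -0.39 with PC-9ER in place of PC-9GR. HLA-B was at 74.5 CPM in HCC827GR and 11.4 CPM in PC-9GR, against 58.7 CPM in HCC827 and 51.7 CPM in PC-9, and reads of the HLA genes can be shared. The peptide transporter TAP2 was at 130 CPM in HCC827GR and 29.3 CPM in PC-9GR, against 98.6 CPM in HCC827 and 76.8 CPM in PC-9. Of 29 interferon-stimulated genes, 12 were higher and 6 lower in HCC827GR, and 10 of the 12 were also higher in HCC827 than in PC-9. IFITM3, a membrane protein that blocks virus entry, was at 181 CPM in HCC827GR and 3.58 CPM in PC-9GR, against 198 CPM in HCC827 and 31.6 CPM in PC-9. Chemokines and NF-kB genes were evenly divided, with 10 of 23 higher and 10 lower. The adhesion molecule ICAM1 was at 457 CPM in HCC827GR and 3.14 CPM in PC-9GR, against 218 CPM in HCC827 and 492 CPM in PC-9. IL32 was at 230 CPM in HCC827GR and 12.5 CPM in PC-9GR, against 8.53 CPM in HCC827 and 12.0 CPM in PC-9. The neutrophil chemokine CXCL5 was at 46.1 CPM in HCC827GR and 282 CPM in PC-9GR, against 89.3 CPM in HCC827 and 0 in PC-9. Complement and acute phase genes were 6 of 23 higher and 10 lower, and the copper carrier ceruloplasmin, CP, was at 0.134 CPM in HCC827GR and 78.6 CPM in PC-9GR, against 0.826 CPM in HCC827 and 4.38 CPM in PC-9.

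Genes of tissue identity differed by list. Of 11 lung lineage genes, 5 were higher and 4 lower in HCC827GR than in PC-9GR, against 20.3% and 19.2% of all genes. The endoderm factor FOXA2 was at 2.94 CPM in HCC827GR and 64.9 CPM in PC-9GR, against 8.95 CPM in HCC827 and 0.355 CPM in PC-9. ABCA3, a lipid carrier of lamellar bodies, was higher than the parent in both, at 116 CPM in HCC827GR and 58.7 CPM in PC-9GR, against 3.44 CPM in HCC827 and 6.27 CPM in PC-9. HOX genes, which mark position along the body axis, were 1 higher and 14 lower of 25, and the median log2 ratio was -1.24 between the GR libraries and 1.38 between the parents. With PC-9ER in place of PC-9GR the median was 0.08. HOXB13 was at 2.14 CPM in HCC827GR and 12.7 CPM in PC-9GR, against 2.89 CPM in HCC827 and 0 in PC-9. Of 8 neuroendocrine genes, 1 was higher and 6 lower in HCC827GR, UCHL1 among the 6.

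Among metabolic genes, those of sterol and fatty acid synthesis gave a further contrast. Of 30 sterol and fatty acid synthesis genes, 2 were higher and 15 lower in HCC827GR than in PC-9GR, and between the parents 1 was higher and 17 lower. The stearoyl desaturase SCD was at 313 CPM in HCC827GR and 5121 CPM in PC-9GR, against 789 CPM in HCC827 and 3431 CPM in PC-9. FADS2, another desaturase, was at 28.9 CPM in HCC827GR and 1661 CPM in PC-9GR, against 40.3 CPM in HCC827 and 140 CPM in PC-9. The direction was thus that of the parents. Glycolysis and hypoxia genes were 6 of 32 higher and 8 lower, near the 20.3% higher and 19.2% lower over all genes tested. CA12, a membrane carbonic anhydrase, had 1 count in HCC827GR and was at 1676 CPM in PC-9GR. It was at 0.482 CPM in HCC827 and 2.90 CPM in PC-9. The ratio for CA12, PC-9GR over HCC827GR, was 25104 with a counting interval of 4505 to 991584. Stress response and serine synthesis genes were 4 of 25 higher and 7 lower, and apoptosis regulators were 5 of 25 higher and 6 lower. Both lists were also near the shares over all genes. BCL2, an inhibitor of apoptosis, was at 16.2 CPM in HCC827GR and 1.68 CPM in PC-9GR, against 0.138 CPM in HCC827 and 7.58 CPM in PC-9. Of 46 ribosomal protein genes, 4 were higher and 5 lower in HCC827GR.

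**Figure D5:**
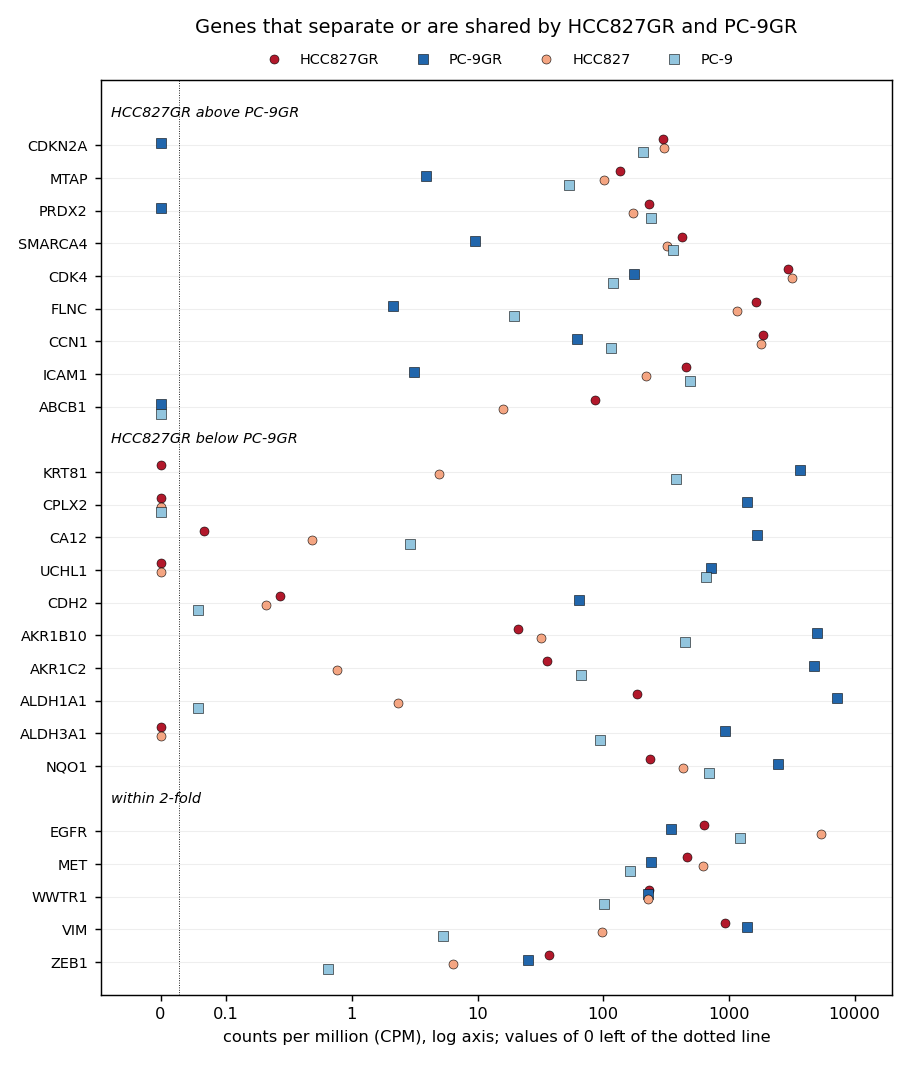
Expression of 24 genes in HCC827GR and PC-9GR (dark points) and in HCC827 and PC-9 (pale points), in CPM on a log axis, 1 library each, with values of 0 drawn left of the dotted line. CDKN2A, PRDX2 and ABCB1 were at 0 in PC-9GR and KRT81, CPLX2, UCHL1 and ALDH3A1 were at 0 in HCC827GR, whereas EGFR, MET, WWTR1, VIM and ZEB1 were within 2-fold between the GR libraries.

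By chromosome, the offset between the GR libraries was uneven. Over all genes tested, 20.3% were higher and 19.2% lower in HCC827GR, with a median log2 ratio of 0.10. On chromosome 13, 91 of 218 genes were higher in HCC827GR (41.7%) and 16 lower (7.34%), with a median log2 ratio of 0.77, against -0.27 between the parents. The median on chromosome 13 was 0.80 for HCC827GR over HCC827 and -0.36 for PC-9GR over PC-9, so the medians of the GR libraries lay on opposite sides of their parents. On chromosome 15, 46 of 430 genes were higher (10.7%) and 155 lower (36.0%), with a median of -0.60, against 0.11 between the parents, and the median for PC-9GR over PC-9 was 0.76. On chromosome 1, 29.1% of 1307 genes were higher and 10.9% lower, and on chromosome 4, 29.9% of 472 genes were higher and 14.4% lower. The number of gene copies was not measured.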

How the data were processed

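Total RNA of 6 cell lines was sequenced, 1 library each, with a stranded ribosomal depletion kit per the labels' protocols. The authors deposited expected counts per gene, estimates of which 13.3% to 14% per library were not whole. HISAT2 2.0.4, Cuffdiff and GRCh38.p13 are named per the submitters' processing notes, and for the counting step a program was not given in the sources used here. Counts were rounded and 11 Y-linked genes were left out of the table of 4 libraries, leaving 16843. The table of the ER libraries entered only as an alternative, over 15998 shared genes. A count of 0 allows up to 3 counts, which is 0.168 CPM (PC-9GR) to 0.206 CPM (HCC827), and intervals are exact binomial ones at 95% covering counting error only. CPM used library totals, with Python 3.11.15 and pandas 2.3.3, and alternative scaling factors came from edgeR 4.0.16 and DESeq2 1.42.0. The members and the 44 lists were chosen with earlier results of these data known. Named were TFF3, EGFR, YAP1, WWTR1 and MET, the 10 highest and 10 lowest ratios at 10 CPM or more, the 4 to 8 leading genes of each class, up to 3 of each list each way, and any member of the epithelial lists. Other genes named, among them further members of the lists, were chosen after their values were seen. Some genes that these rules name are not reported here.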

Additional observations from a re-analysis of the deposited data

Results flagged for a closer look

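Some genes differed from their labelled parents in opposite directions in the 2 GR libraries. Of 13729 genes tested, 228 were at least 2-fold higher in HCC827GR than in HCC827 and at least 2-fold lower in PC-9GR than in PC-9. In the other direction there were 278. Over all genes, 8.33% were higher and 9.42% lower in HCC827GR, and 21.4% were higher and 20.5% lower in PC-9GR. Whether 228 and 278 exceed what unrelated differences would give was not tested. PC-9 is the parent of PC-9GR by label, and that origin was not tested. The difference between the GR libraries was not tested, since each line has 1 library. Where a library had 0 to 3 counts, these log2 ratios depend on the prior count of 2 and are not bounds.

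Of the 8 genes whose difference turned round most between parents and GR libraries, 7 differed from the labelled parents in opposite directions. GABRA3, a GABA receptor subunit, had a log2 ratio of 1.90 for HCC827GR over HCC827 and -8.64 for PC-9GR over PC-9. The integrin-like ITGBL1 had 1.23 and -8.94 for the same ratios, the complement receptor CR2 had 3.64 and -6.35, and the heparan sulfate proteoglycan GPC4 had 6.78 and -4.80. PCSK1N, an inhibitor of a prohormone convertase, had -6.36 for HCC827GR over HCC827 and 8.02 for PC-9GR over PC-9. POF1B, an actin-binding protein, had -5.23 and 7.87 for the same ratios, and the Wnt regulator DKK3 had -3.65 and 7.32. GPC4 was at 21.2 CPM in HCC827GR with 1 count in PC-9GR, against 1 count in HCC827 and 4.91 CPM in PC-9. DKK3 was at 0.334 CPM in HCC827GR and 38.7 CPM in PC-9GR, against 5.64 CPM in HCC827 and 0.118 CPM in PC-9.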

How the results depend on the processing

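No paired analysis was possible because each line has 1 library and the labels carry no replicate numbers, and for the same reason no library could be left out within a line. The limits are 1 library a line, expected counts from a program not named, and the label of PC-9GR. The count of genes separated between the GR libraries was 5171, and it was 5047 under TMM scaling, 5044 under median-of-ratios scaling, 5227 with a prior count of 0.5, 6356 with no filter, 3500 at 10 CPM and 5133 with PC-9ER in place of PC-9GR. The median log2 ratio over all genes was 0.10 with library totals, -0.02 with TMM and -0.03 with median-of-ratios scaling. With library totals, 2662 genes were higher and 2509 lower in HCC827GR. These counts were 2285 and 2762 under TMM, and 2268 and 2776 under median-of-ratios scaling. Lists with a median of at least 1 in size numbered 11 with library totals and 16 under TMM or median-of-ratios scaling. A 4-fold limit, which by construction keeps fewer genes, gave 2472 separated, 1117 higher and 1355 lower, with 255 lower and 137 higher in both GR libraries than in their parents. At 10 CPM or more, where fewer genes were tested, 1641 were lower in HCC827GR, 320 were higher in both GR libraries and 7 in place of 11 lists had a median of at least 1 in size. With PC-9ER in place of PC-9GR, 279 genes were lower and 177 higher in both, and 64.6% in place of 38.2% of the separated genes differed the same way between the parents. List medians that moved with PC-9ER included the epithelial regulators (-2.99 in place of 0.62), the adherens and surface genes (-2.10 in place of 0.34), the keratins (-3.29 in place of -0.93), the collagens (-2.91 in place of -1.05), the interferon-stimulated genes (1.22 in place of 0.54), the complement genes (0.40 in place of -0.69) and the TGF-beta genes (-0.09 in place of -0.99). The median of the HOX genes was then 0.08 and that of the membrane serine proteases, kallikreins and inhibitors -3.64, and the second was -0.27 at 10 CPM or more, against 1.32. Among the log2 ratios that turned round with PC-9ER were those of HCC827GR over it for LCP1 (-1.30), RAC2 (-0.33), GABRA3 (-3.05), ITGBL1 (-3.06), CR2 (-1.67), PRAME (5.41), DKK3 (0.93), CDH3 (-7.22), GRHL2 (-8.29), ESRP1 (-7.10), ALDH1A1 (10.54), ALPK2 (4.37) and IGFBP7 (8.42). The cause of these changes was not tested.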
